A study of Mus musculus with 4 samples.

Results

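The genes described here are 10 members of the Notch pathway, the receptors Notch1, Notch2 and Notch3, the ligands Jag1, Jag2 and Dll1, and the target genes Hes1, Hey1, Heyl and Nrarp. They were taken from the deposited table by gene symbol, and all 10 were found among its 17721 genes. Notch receptors are membrane proteins that are activated by ligands on a neighbouring cell. After ligand binding the receptor is cut by an ADAM protease and then by gamma-secretase, and its intracellular part enters the nucleus, where it joins the DNA-binding protein RBPJ and switches on target genes such as those of the Hes and Hey families of transcriptional repressors. In mouse skin the pathway is known for committing basal keratinocytes to suprabasal differentiation and for its activity in the matrix, inner root sheath and shaft of the growing hair follicle.

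RNA-seq compared the epidermis of the back of LDB2-/- and wild type C57BL/6 mice, taken at postnatal day 63, in 2 libraries of each genotype. LDB2 carries no DNA-binding domain and acts as a cofactor of LIM domain proteins. How the LDB2 allele was made, which sex was used and whether each library came from a separate animal are not given in the sources used here, so p-values measure only the spread between these libraries, which may be technical. The question addressed is how RNA levels in adult epidermis differ without LDB2.

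The total count was 54095522 and 68436842 in LDB2-/- libraries 1 and 2, and 67307536 and 57517162 in wild type libraries 1 and 2. Ldb2 itself had 0 and 0 counts in LDB2-/- and 0 and 8 counts in wild type, too few to check the genotype labels. Keratinocyte markers were present in every library, and the summed level of each cell type marker list examined was apart between genotypes. The 9 inner root sheath genes summed to 111932 and 121523 CPM in LDB2-/- and to 166 and 638 CPM in wild type, whereas the 6 suprabasal genes summed to 4720 and 4376 CPM in LDB2-/- and to 29483 and 25244 CPM in wild type. Of these 6 genes 5 were lower in LDB2-/-, and Ivl went the other way, at 353 and 324 CPM in LDB2-/- and 227 and 186 CPM in wild type. CPM stands for counts per 1e+06, taken here after each library total was multiplied by its TMM factor, which corrects for a few abundant genes taking up counts. In bulk tissue such as this, fewer cells of a type and less RNA per cell cannot be told apart.

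Promoter sequence is shown for the ligands that fell together, Jag2 and Dll1, and for the target Nrarp, which was not called, from RefSeq (build GRCm38.p6). The promoter table matched 7 of the 10 members, with 8 windows, and not Hes1, Hey1 and Heyl. Each stretch is the 250 bases before a transcription start, 5′ to 3′ on the strand of the gene. Capitals mark matches on either strand to the RBPJ core TGGGAA or to sites that Hes and Hey proteins are known to bind, which are the E-box CACGTG, the class C site CACGCG and the N-box CACNAG. No match of one motif overlapped a match of another.
Nrarp, chr2:25180508-25180757, plus strand: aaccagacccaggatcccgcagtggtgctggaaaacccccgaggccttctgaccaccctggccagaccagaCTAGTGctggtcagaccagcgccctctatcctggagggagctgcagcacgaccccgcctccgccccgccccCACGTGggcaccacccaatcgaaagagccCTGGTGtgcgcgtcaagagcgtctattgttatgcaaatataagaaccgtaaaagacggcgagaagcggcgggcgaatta
Jag2, chr12:112929496-112929745, minus strand: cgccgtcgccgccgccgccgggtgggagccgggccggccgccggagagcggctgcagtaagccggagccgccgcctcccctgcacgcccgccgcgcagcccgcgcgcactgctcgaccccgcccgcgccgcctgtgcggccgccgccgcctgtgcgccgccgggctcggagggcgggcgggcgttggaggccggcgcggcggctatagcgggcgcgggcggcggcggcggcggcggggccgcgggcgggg
Dll1, downstream start, chr17:15375824-15376073, minus strand: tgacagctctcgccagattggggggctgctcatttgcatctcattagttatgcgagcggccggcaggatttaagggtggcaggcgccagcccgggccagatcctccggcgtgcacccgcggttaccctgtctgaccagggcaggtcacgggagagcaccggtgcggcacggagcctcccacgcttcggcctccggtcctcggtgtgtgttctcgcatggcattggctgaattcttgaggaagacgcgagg
Dll1, upstream start, chr17:15376933-15377182, minus strand: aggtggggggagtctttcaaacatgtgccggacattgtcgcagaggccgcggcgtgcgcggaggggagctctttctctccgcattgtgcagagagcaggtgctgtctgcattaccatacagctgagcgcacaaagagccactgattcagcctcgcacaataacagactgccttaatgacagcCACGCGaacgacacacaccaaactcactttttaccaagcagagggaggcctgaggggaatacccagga
The Nrarp window held 1 CACGTG, from 108 to 103 bases before the start, and 2 N-boxes. The window at the upstream start of Dll1 held 1 CACGCG, from 68 to 63 bases before the start, and the Jag2 window and the downstream Dll1 window held no match to any of the motifs. TGGGAA was in none of the 8 member windows and in 21.6% of all 32851 windows of the table, CACGTG was in 6.02%, CACGCG in 7.62% and CACNAG in 36.7%. These matches describe letters only. The Jag2 window was 87.2% G and C, against a median of 52.4% over all windows. It lies inside the annotated span of Jag2, which ends at 112929812, so the bases upstream of that span are not shown.

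Genes were tested where at least 2 libraries reached an FPKM of 1, a level per transcript length and library size. That held for 9 of the 10 members, and Hey1 was below 1 in all 4 libraries. Under edgeR's quasi-likelihood test, with Benjamini-Hochberg adjustment across the 12400 genes that entered it, 4 members were called at an adjusted p under 0.05. Heyl and Hes1 were higher in LDB2-/-, Jag2 and Dll1 were lower, and no receptor was called. Across all genes tested 57.2% were called, 28.4% higher and 28.8% lower in LDB2-/-, so the share of members called, 44.4%, was not above the background. The median log2 fold change of LDB2-/- over wild type was -0.06 over the 9 members and -0.01 over all genes tested. The CPM of the genotypes did not overlap for 7 of the 9 tested members, against 82.5% of all genes tested. LDB2-/- was above wild type for 3 of them (40.8% of all genes) and below for 4 (41.7%). By FPKM 7 of 9 did not overlap either (83.7% of all genes), with 2 above (27.6%) and 5 below (56.1%).

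**Figure D1:**
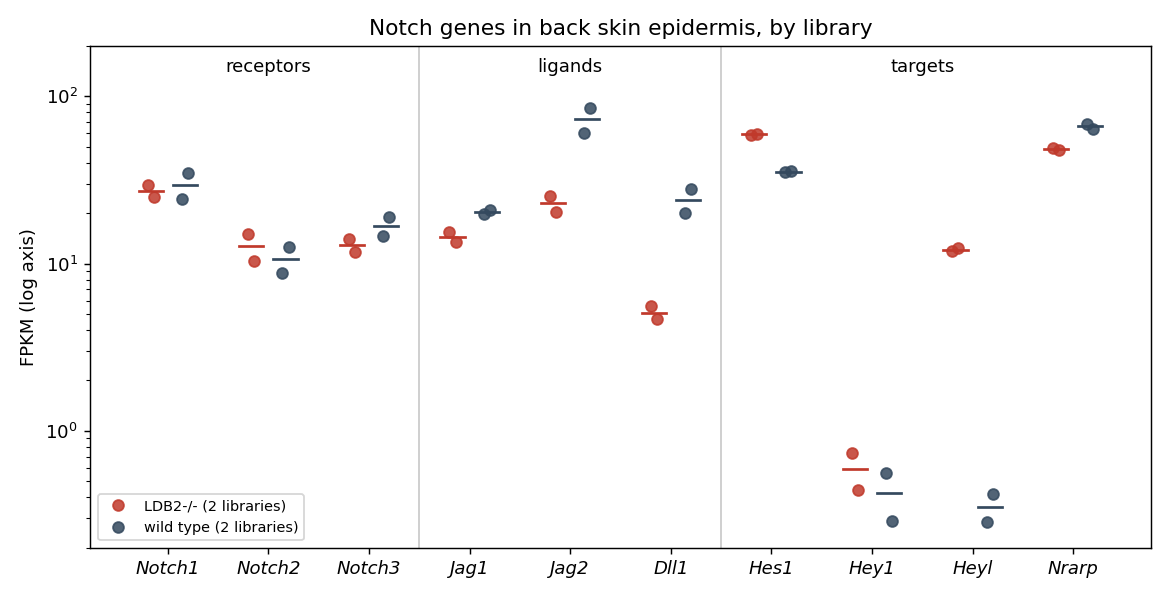
FPKM (log axis) of the 10 Notch genes in each library, LDB2-/- in red and wild type in dark blue. Points are libraries and bars their means, with n = 2 per genotype. Heyl stands at 11.9 and 12.4 FPKM in LDB2-/- and at 0.286 and 0.417 FPKM in wild type, while the points of Notch1 overlap.

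The ligands Jag2 and Dll1 were lower in LDB2-/-, and Jag1 was not called. Jag2 (gene ID 16450, chromosome 12, 112907803 to 112929812, GRCm38.p6, protein coding) encodes a Jagged ligand that in mouse epidermis is known from the basal layer. Jag2 was at 113.8 and 97.2 CPM in LDB2-/- and at 225.2 and 312.9 CPM in wild type. Both LDB2-/- libraries lay far below both wild type libraries, and the wild type libraries were the more spread. Jag2 fell by 1.35 on the log2 scale (SE 0.19, edgeR adjusted p = 0.0022), which makes it 2.55-fold higher in wild type.

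Dll1 (gene ID 13388, chromosome 17, 15367354 to 15376932, protein coding) encodes a Delta-like ligand. It was at 21.0 and 18.6 CPM in LDB2-/- and at 63.1 and 86.0 CPM in wild type. The genotypes were well apart, with the lower wild type library still above both LDB2-/- libraries. Dll1 fell by 1.91 on the log2 scale (SE 0.18, edgeR adjusted p = 0.000656), the largest fall among the 9 tested members. Annotation places the long non-coding gene A930024N18Rik on the opposite strand over 1873 bases of Dll1, introns included. Overlap of exons was not measured and strand use in counting is not given. Whether reads of the other gene enter the Dll1 counts is thus not known.

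Jag1 (gene ID 16449, chromosome 2, 137081451 to 137116520, protein coding) encodes the other Jagged ligand. It was at 94.4 and 86.7 CPM in LDB2-/- and at 100.2 and 103.4 CPM in wild type. The genotypes did not overlap, but the gap was small, and the log2 fold change of -0.17 (SE 0.11, edgeR adjusted p = 0.221) was not called. Jag1 was called lower (-0.49, edgeR adjusted p = 0.0167) when libraries were scaled by their totals alone. That scaling put the median over all genes tested at -0.33.

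The make-up of the ligands differed between genotypes. Jag1 made up 33.4% and 34.9% of the summed ligand FPKM in LDB2-/- and 19.8% and 15.6% in wild type. Jag2 made up 54.6% and 53.1% in LDB2-/- and 60.3% and 63.7% in wild type, and Dll1 made up 11.9% and 12.02% in LDB2-/- and 19.96% and 20.7% in wild type. The shares of each of the 3 ligands were apart between genotypes. An exact two-sided permutation test gave p = 0.333 for each, which is the smallest p that 2 libraries against 2 allow. Jag2 was the most abundant ligand per length in every library.

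The basal keratinocyte list, which includes Krt5, Krt14 and the hemidesmosome genes Col17a1, Itga6 and Itgb4, moved in the same direction as Jag2 and Dll1. All 7 listed basal genes fell, by a median of -2.01 on the log2 scale, and they summed to 10794 and 10992 CPM in LDB2-/- and to 26040 and 23572 CPM in wild type. Per 1000 CPM of this list, Jag2 was at 10.5 and 8.84 CPM in LDB2-/- and at 8.65 and 13.3 CPM in wild type, so that the genotypes overlapped on this scale. Dll1 was at 1.95 and 1.70 CPM per 1000 CPM in LDB2-/- and at 2.42 and 3.65 in wild type, still without overlap. Jag1 was at 8.75 and 7.89 CPM per 1000 CPM in LDB2-/- and at 3.85 and 4.39 in wild type. Krt5 (-1.05) and Krt14 (-0.90) held most of the summed CPM and fell least of the 7 on the log2 scale. Itgb4 (-1.69) fell by less than Dll1 (-1.91), and Krt15 (-2.01), Lamb3 (-2.31), Itga6 (-2.38) and Col17a1 (-2.95) by more. Jag2 (-1.35) fell by less than each of these genes except Krt5 and Krt14. The ratios thus depend on which basal genes are used. The part of the basal list in the result of each ligand was not tested.

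**Figure D2:**
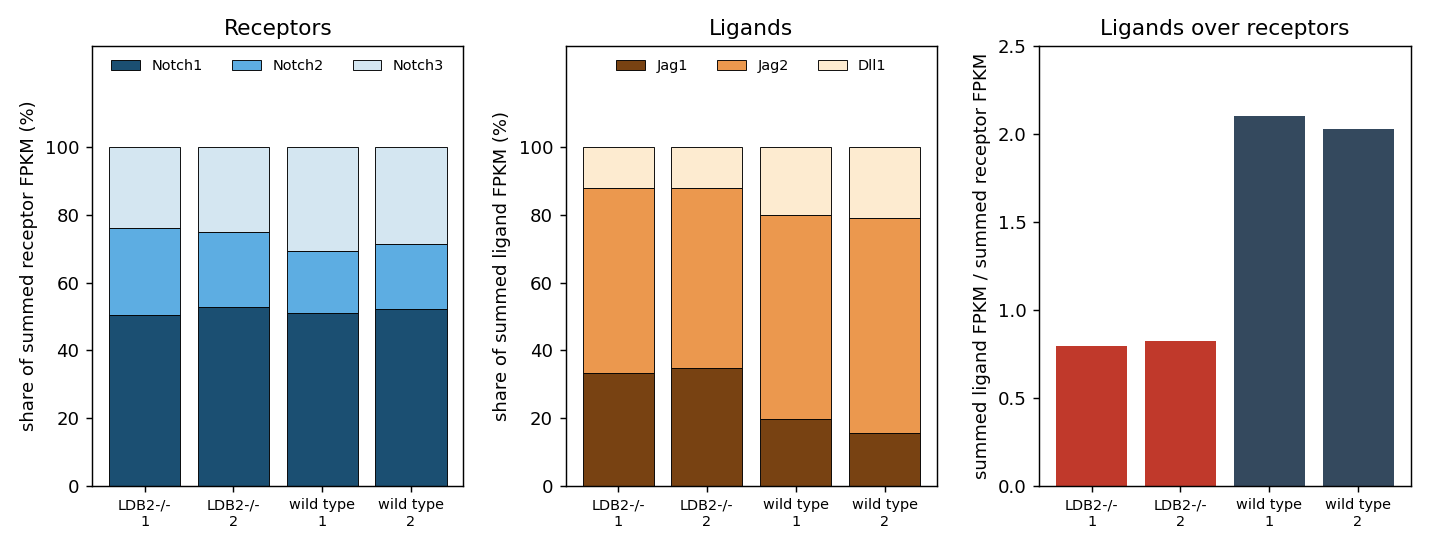
Shares of each receptor in the summed receptor FPKM and of each ligand in the summed ligand FPKM (stacked bars, percent), and summed ligand FPKM over summed receptor FPKM (single bars), by library. Notch1 makes up 50.6% to 52.9% of receptor FPKM in every library, and ligands over receptors stand at 0.793 and 0.821 in LDB2-/- and at 2.101 and 2.03 in wild type.

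No receptor passed the test. Notch1 (gene ID 18128, chromosome 2, 26457902 to 26503822, protein coding), the receptor best known for keratinocyte commitment, was at 310.9 and 276.7 CPM in LDB2-/- and at 212 and 297.1 CPM in wild type. The genotypes overlapped, since wild type library 2 lay between the LDB2-/- libraries. The log2 fold change of Notch1 was 0.21 (SE 0.18, edgeR adjusted p = 0.372). Its size depended on the wild type libraries, at 0.47 (edgeR adjusted p = 0.039) without wild type replicate 2 and -0.02 (adjusted p = 0.939) without wild type replicate 1. It was also below 0 with the library totals alone (-0.11, edgeR adjusted p = 0.656). The antisense gene 0610009E02Rik is annotated over 1488 bases of Notch1, and Gm13568 over 414 bases, and whether the counts separate the strands is not given.

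Notch2 (gene ID 18129, chromosome 3, 98013538 to 98150367, protein coding), which is known to act beside Notch1 in skin, was at 174 and 128 CPM in LDB2-/- and at 84.9 and 119.7 CPM in wild type. The genotypes did not overlap, but LDB2-/- library 2 and wild type library 2 were close. Notch2 had a log2 fold change of 0.56 (SE 0.22, edgeR adjusted p = 0.0729) and missed the threshold. It was called higher without LDB2-/- replicate 2 (0.77, edgeR adjusted p = 0.0188) and without wild type replicate 2 (0.83, edgeR adjusted p = 0.009), and with DESeq2 (adjusted p = 0.0193). It was smaller and not called without LDB2-/- replicate 1 (0.33, edgeR adjusted p = 0.234) and without wild type replicate 1 (0.33, edgeR adjusted p = 0.181). The same held with library totals alone (0.25, edgeR adjusted p = 0.416) and on log2(FPKM + 1) (0.23, limma adjusted p = 0.408). The authors' deposited table gives Notch2 as 1.47-fold higher in LDB2-/- with an adjusted p of 0.0262. On the same strand as Notch2, Gm42819 is annotated over 5121 of its bases and Gm42820 over 3063.

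Notch3 (gene ID 18131, chromosome 17, 32120820 to 32166896, protein coding) is a receptor also known from the mural cells of blood vessels. It was at 122.8 and 109.1 CPM in LDB2-/- and at 106.8 and 135.4 CPM in wild type, and the wild type libraries enclosed the LDB2-/- libraries. Its log2 fold change was -0.06 (SE 0.15, edgeR adjusted p = 0.740), with an approximate 95% interval from -0.36 to 0.23. The direction turned without wild type replicate 2 (0.12) and without LDB2-/- replicate 2 (0.02). Over 21024 bases, introns included, Notch3 shares its locus with Gm17276 on the opposite strand. Overlap of exons was not measured, so whether this affects the Notch3 counts is not known.

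Notch1 was the most abundant receptor per length in every library. Notch3 came next except in LDB2-/- library 1, where Notch2 did. Notch1 made up 50.6% and 52.9% of the summed receptor FPKM in LDB2-/- and 50.9% and 52.4% in wild type, which overlapped. Notch2 made up 25.6% and 22.1% in LDB2-/- and 18.4% and 19.1% in wild type, while Notch3 made up 23.9% and 24.9% in LDB2-/- and 30.7% and 28.5% in wild type. Those of Notch2 and Notch3 were apart between genotypes (exact two-sided permutation p = 0.333 for each). Summed over the 3 genes, receptor FPKM was 58.6 and 47.0 in LDB2-/- and 47.6 and 66.2 in wild type, and ligand FPKM was 46.5 and 38.6 in LDB2-/- and 100 and 134.1 in wild type. The ratio of ligand to receptor FPKM was 0.793 and 0.821 in LDB2-/- and 2.101 and 2.03 in wild type, close within each genotype.

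The target genes did not move together. Heyl (gene ID 56198, chromosome 4, 123233556 to 123249870, protein coding) encodes a Hey family repressor known mainly from blood vessel walls and muscle. Heyl had 2953 and 3906 counts in LDB2-/- and 89 and 111 counts in wild type. This was 59.5 and 65.7 CPM in LDB2-/- and 1.20 and 1.72 CPM in wild type, so that Heyl was low but detected in wild type and far higher in both LDB2-/- libraries. Heyl rose by 5.43 on the log2 scale, or 43.0-fold (SE 0.23 on the log2 scale, edgeR adjusted p = 8.65e-05). A rise of at least 16-fold that passed the test was found for 2.75% of all genes tested. Heyl passed the filter on low values only through the LDB2-/- libraries, so the filter itself favours a difference for this gene. Without the filter the log2 fold change was 5.40 (edgeR adjusted p = 0.000195).

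Hes1 (gene ID 15205, chromosome 16, 30065357 to 30067796, protein coding), a widely used readout of Notch activity, encodes a basic helix-loop-helix repressor. It was at 94.7 and 100.9 CPM in LDB2-/- and at 47.1 and 46.6 CPM in wild type. The libraries of each genotype were close to each other and far from those of the other. Hes1 rose by 1.06 on the log2 scale, or 2.09-fold (SE 0.10, edgeR adjusted p = 0.000707).

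Nrarp (gene ID 67122, chromosome 2, 25180758 to 25183339, protein coding) encodes an ankyrin repeat protein that is induced by Notch and limits its activity. Nrarp was at 140.3 and 144.1 CPM in LDB2-/- and at 163 and 148.2 CPM in wild type. The genotypes did not overlap by a small margin, and the log2 fold change of -0.13 (SE 0.11, edgeR adjusted p = 0.335) was not called. It was called lower with the library total alone (-0.45, edgeR adjusted p = 0.0127) and after quantile normalization of FPKM (-0.38, limma adjusted p = 0.00987). The gene Gm38287 is annotated antisense over 2559 bases of Nrarp, and whether the counts separate the strands is not given. Hes1 over Nrarp, a ratio of FPKM that does not depend on the scaling between libraries, was 1.20 and 1.24 in LDB2-/- and 0.513 and 0.558 in wild type.

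Hey1 (gene ID 15213, chromosome 3, 8663359 to 8667038, protein coding), a Hey family repressor of endothelial and other cells, was the lowest member in LDB2-/-. It had 90 and 69 counts in LDB2-/- and 85 and 37 counts in wild type, or 1.81 and 1.16 CPM in LDB2-/- and 1.15 and 0.572 CPM in wild type. The gap between LDB2-/- library 2 and wild type library 1 was small. With no filter on low values its log2 fold change was 0.76 (SE 0.59, edgeR adjusted p = 0.344), so no difference was detectable at this depth.

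Per length, the order of the members differed between genotypes. In LDB2-/- Hes1 led with 59.1 ± 0.268 FPKM, followed by Nrarp with 48.5 ± 1.05, Notch1 with 27.2 ± 3.35, Jag2 with 22.9 ± 3.48 and Jag1 with 14.5 ± 1.46 FPKM (mean ± SD, n = 2). Notch3 (12.8 ± 1.59), Notch2 (12.7 ± 3.24) and Heyl (12.1 ± 0.349 FPKM) followed without differing beyond their spread, and Dll1 (5.09 ± 0.639) and Hey1 (0.591 ± 0.208) came last. The libraries of Notch1 and Jag2, and of Jag1 and Notch3, also overlapped. In wild type Jag2 led with 72.9 ± 17.8 FPKM and overlapped Nrarp, which had 66.2 ± 3.48. Hes1 followed with 35.4 ± 0.244, Notch1 with 29.5 ± 7.38, Dll1 with 23.9 ± 5.53, Jag1 with 20.3 ± 0.754, Notch3 with 16.7 ± 3.04 and Notch2 with 10.7 ± 2.72 FPKM (mean ± SD, n = 2). Notch1 overlapped Dll1, and Dll1 overlapped Jag1. Hey1 (0.424 ± 0.193) and Heyl (0.351 ± 0.0925 FPKM) were lowest and overlapped.

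Markers of several other cell types moved with the rise of Heyl and Hes1, among them blood vessel, muscle, fibroblast, melanocyte and hair lists. Of 11 endothelial genes 5 were tested and all 5 rose, and the list summed to 62.4 and 68.4 CPM in LDB2-/- and to 5.31 and 8.28 CPM in wild type. All 5 were below an FPKM of 1 in both wild type libraries. Like Heyl, they passed the filter only through the LDB2-/- libraries, so the filter itself favours a rise. Kdr, an endothelial receptor gene below the filter, went the other way, with 0 and 0 counts in LDB2-/- and 10 and 5 counts in wild type. Of 8 mural cell genes 3 were tested, of which Acta2 (4.43) and Tagln (5.91) rose on the log2 scale and Cspg4 (0.17) did not pass, with list sums of 129.8 and 141.3 CPM in LDB2-/- and 32.5 and 38.4 CPM in wild type. Among the untested mural genes, the pericyte markers Rgs5, Kcnj8 and Abcc9 had 0 counts in both LDB2-/- libraries. In wild type Rgs5 had 14 and 26 counts, Kcnj8 4 and 12, and Abcc9 3 and 0. The other untested mural genes, Pdgfrb and Myh11, went the other way. Pdgfrb had 79 and 93 counts in LDB2-/- and 28 and 38 in wild type, and Myh11 had 12 and 27 in LDB2-/- and 0 and 0 in wild type. Acta2 and Tagln are also made by other contractile cells. Of 6 skeletal muscle genes 5 were tested and all 5 rose, by a median of 5.11 on the log2 scale, and the list summed to 46.6 and 38.0 CPM in LDB2-/- and to 1.05 and 0.820 CPM in wild type. These 5 muscle genes too were below an FPKM of 1 in both wild type libraries, with the same limit from the filter. Of 6 fibroblast genes 4 were tested and all 4 rose, with list sums of 182.4 and 238.3 CPM in LDB2-/- and 79.4 and 44.8 CPM in wild type. The untested Pdgfra and Lum overlapped between genotypes. Pdgfra was at 1.85 and 0.807 CPM in LDB2-/- and 1.91 and 0.959 CPM in wild type, and Lum at 1.89 and 1.03 against 1.12 and 0.449 CPM. All 5 melanocyte genes rose too, and summed to 1194 and 1362 CPM in LDB2-/- and to 26.3 and 46.6 CPM in wild type. The 6 hair matrix genes, among them Msx2 and Lef1, all rose and summed to 1906 and 2069 CPM in LDB2-/- and to 61.0 and 74.3 CPM in wild type. Tagln, the melanocyte gene Tyr and the hair matrix gene Shh were also below an FPKM of 1 in both wild type libraries. The part of these cell types in the results of Heyl and Hes1 was not tested.

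**Figure D3:**
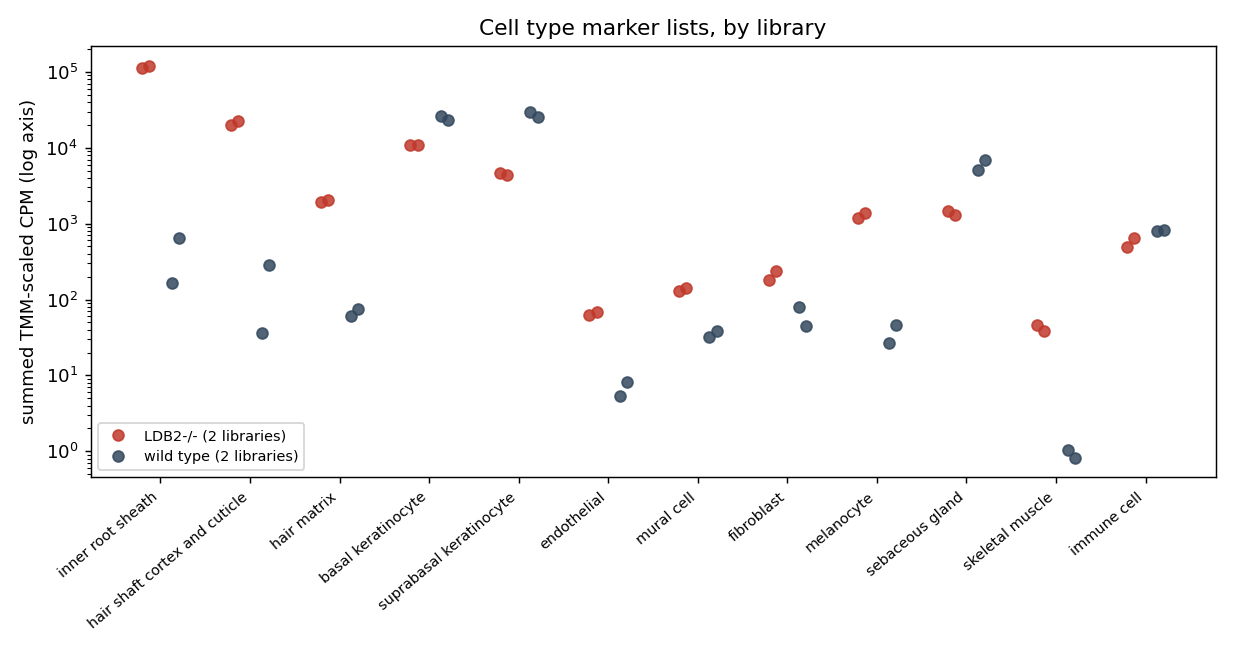
Summed TMM-scaled CPM (log axis) of each cell type marker list in each library, LDB2-/- in red and wild type in dark blue, with n = 2 per genotype. The inner root sheath sum stands at 111932 and 121523 CPM in LDB2-/- and at 166 and 638 CPM in wild type, and the basal, suprabasal, sebaceous and immune sums are lower in LDB2-/-. Of 5 immune genes 3 were called lower and Lyz2 was called higher. Cd74, the largest part of the immune sum, was not called.

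Other genes of the pathway were taken from a list of 59, of which 57 were in the table and 47 were tested. Of these 13 rose, 16 fell and 18 were not called, and the median log2 fold change over the 47 was -0.20, against -0.01 over all genes tested. The share called was 61.7%, near the background of 57.2%. The split depended on the scaling, with 7 higher and 26 lower by the library total alone, a setting that put 2248 of all genes tested higher and 5096 lower. Values below are log2 fold changes of LDB2-/- over wild type with edgeR's adjusted p.

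Among enzymes that modify receptors, changes were small. The Fringe glycosyltransferases, which alter the response to Delta and Jagged ligands, went in opposite directions, with Rfng higher (0.56, adjusted p = 0.0164) and Lfng lower (-0.51, adjusted p = 0.0441). The call of Lfng was lost without LDB2-/- replicate 1 (adjusted p = 0.0978), LDB2-/- replicate 2 (adjusted p = 0.0737) or wild type replicate 2 (adjusted p = 0.241) and with the replicate number as a block (adjusted p = 0.0589), and that of Rfng without LDB2-/- replicate 2 (adjusted p = 0.086) and with the library total alone (adjusted p = 0.153). Pofut1, which adds fucose to receptors, had -0.36 (adjusted p = 0.0874).

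Of 10 genes for receptor cleavage 4 rose and 2 fell, a share called of 60%, near the 57.2% of all genes tested (28.4% higher, 28.8% lower). The rises were all in gamma-secretase, with the presenilin Psen2 at 1.31 (SE 0.24, adjusted p = 0.00567) and the subunit Psenen at 0.96 (SE 0.16, adjusted p = 0.0045), while Aph1a (0.61) and Ncstn (0.41), chosen after their values were seen, were the other rises. Psen2 was at 16.4 and 24.1 CPM in LDB2-/- and at 8.39 and 7.94 CPM in wild type, well apart. Of the ADAM proteases that make the preceding cut, Adam10 fell (-0.62, adjusted p = 0.00403, also chosen after its values were seen) and Adam17 was not called (-0.75, adjusted p = 0.101). Adam17 was at 44.4 and 44.2 CPM in LDB2-/- and at 47.9 and 101.5 CPM in wild type, so that its value rested on wild type library 2. It had -0.11 (adjusted p = 0.573) without wild type replicate 2 and -1.20 (adjusted p = 0.000211) without wild type replicate 1. It was also called with DESeq2 (-0.74, adjusted p = 0.0355), with library totals alone (-1.08, edgeR adjusted p = 0.0451) and on log2(FPKM + 1) (-0.91, limma adjusted p = 0.0418). Aph1b (-0.55, adjusted p = 0.0372), the other fall, and Aph1c are close copies that can share reads.

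Of 11 tested genes for endocytosis and ubiquitin transfer 3 rose and 4 fell. The share called was 63.6%, near the 57.2% of all genes tested (28.4% higher, 28.8% lower). Of the Deltex family, Dtx4 (-2.05, SE 0.20, adjusted p = 0.000667) and Dtx3l (-1.91, SE 0.22, adjusted p = 0.00122) fell, while Dtx3 rose (0.56, adjusted p = 0.0161) and Dtx2 was not called (-0.17, adjusted p = 0.354), the last pair named after their values were seen. A further fall was that of Neurl1b (-1.35, SE 0.17, adjusted p = 0.00171), which encodes a ligase that promotes uptake of Notch ligands. Dtx4 was at 14.7 and 11.4 CPM in LDB2-/- and at 47.7 and 60.8 CPM in wild type, with no overlap. Numb, an inhibitor of Notch, was chosen after its values were seen and rose by 0.91 (adjusted p = 0.00193).

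In the nuclear complex 2 of 7 genes fell and none rose. The share called, 28.6%, was below the 57.2% of all genes tested, of which 28.8% fell and 28.4% rose. Rbpj, the DNA-binding partner of every Notch receptor, was at 34.9 and 21.1 CPM in LDB2-/- and at 48.1 and 58.5 CPM in wild type. The genotypes did not overlap, and the log2 fold change of Rbpj was -0.93 (SE 0.26, edgeR adjusted p = 0.024). The coactivator Ep300 fell by 0.81 (SE 0.23, adjusted p = 0.0283), a call lost without LDB2-/- replicate 2 (adjusted p = 0.0644) and without wild type replicate 2 (adjusted p = 0.0596). The coactivator Maml1 had -0.34 (adjusted p = 0.0659) and was called without wild type replicate 1 (adjusted p = 0.046). Of 8 corepressors 1 rose and 4 fell, a share called of 62.5%. Of the Groucho family, which Hes proteins recruit, Tle3 rose by 1.36 (SE 0.14, adjusted p = 0.000725) and Tle2 fell by 1.49 (SE 0.25, adjusted p = 0.00432). Tle1 (-0.80, adjusted p = 0.00931) and Tle4 (-0.47, adjusted p = 0.0191), named after their values were seen, fell as well. By FPKM, however, Tle1 overlapped between genotypes, at 5.58 and 4.65 in LDB2-/- and 4.46 and 6.07 in wild type. Tle3 was at 446.2 and 455.1 CPM in LDB2-/- and at 159.5 and 190.8 CPM in wild type.

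Among the other Hes and Hey genes, Hes2 and Hes6 rose, and they were the only tested ones of 6 listed. Hes2 had 647 and 773 counts in LDB2-/- and 17 and 7 counts in wild type, which gave a log2 value of 6.23 for LDB2-/- over wild type (SE 0.39, adjusted p = 0.000189), larger than that of any member. Like Heyl, Hes2 passed the filter only through the LDB2-/- libraries. Hes6, which in mouse opposes Hes1, was at 20.4 and 21.6 CPM in LDB2-/- and at 8.06 and 6.14 CPM in wild type, and rose by 1.57 (SE 0.21, adjusted p = 0.00192). Hes5, Hes7 and Hey2 were too low to test, and Hes3 and Dner are not analysed here.

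The other receptors and ligands were mostly near the limit of detection. Notch4 had 59 and 109 counts in LDB2-/- and 81 and 52 counts in wild type. Dll4 had 16 and 24 counts in LDB2-/- and 0 and 3 counts in wild type, and Dll3 had 0 and 25 in LDB2-/- and 3 and 0 in wild type. Dlk1, Mfng, Neurl1a and Dtx1 were also too low to test. Dlk2, a membrane protein related to Notch ligands, was the only tested gene of this group. It was at 5.78 and 4.79 CPM in LDB2-/- and at 29.5 and 27.7 CPM in wild type, and its log2 fold change was -2.44 (SE 0.19, edgeR adjusted p = 0.000319).

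Of 4 keratinocyte genes known from mouse and human work to be raised or repressed downstream of Notch1, 2 rose and 2 fell. Over all genes tested 28.4% rose and 28.8% fell. The cell cycle inhibitor Cdkn1a rose by 0.67 (SE 0.14, adjusted p = 0.00889), and the signalling protein gene Wnt4 rose by 0.59 (adjusted p = 0.00534). Without LDB2-/- replicate 2 Cdkn1a did not pass (adjusted p = 0.0729). Wnt4 was chosen after its values were seen. Trp63, the master regulator of stratified epithelium, was at 222.2 and 198.9 CPM in LDB2-/- and at 501.8 and 539.5 CPM in wild type. Its log2 fold change was -1.31 (SE 0.13, edgeR adjusted p = 0.000675), and Jag2 over Trp63 was 0.512 and 0.489 in LDB2-/- and 0.449 and 0.580 in wild type, which overlapped. Dll1 over Trp63 was lower in LDB2-/- without overlap, at 0.0947 and 0.0937 against 0.126 and 0.159 in wild type. Jag1 over Trp63 was higher in LDB2-/- without overlap, at 0.425 and 0.436 against 0.2 and 0.192 in wild type.

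**Figure D4:**
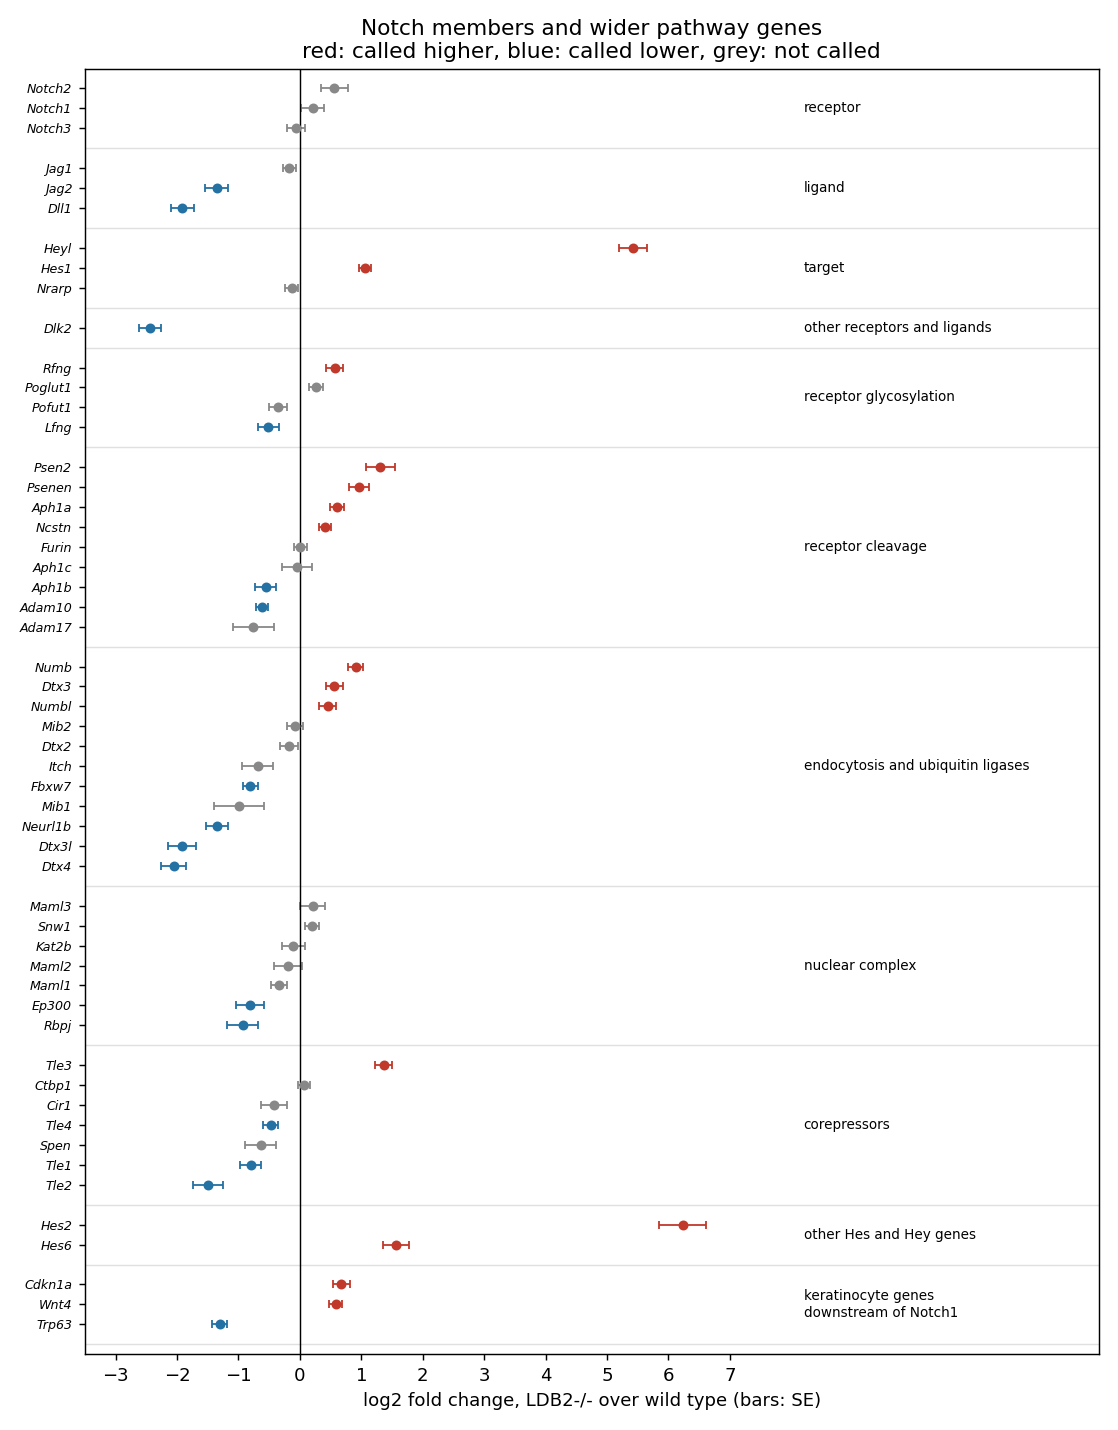
Log2 fold changes of LDB2-/- over wild type with SE (horizontal bars) for the 9 tested Notch members and tested genes of the wider pathway, by role. Red points were called higher, blue points lower and grey points were not called by edgeR at an adjusted p of 0.05. Heyl (5.43) and Hes2 (6.23) lie farthest to the right.

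The calls of the 4 members that passed did not depend on the processing choices tried. Jag2, Dll1, Hes1 and Heyl were each called in the same direction in all 17 alternatives. The log2 fold change ran from -1.67 to -0.87 for Jag2, from -2.23 to -1.20 for Dll1, from 0.67 to 1.12 for Hes1 and from 3.15 to 5.70 for Heyl. The 3 smallest values of Heyl came from log2(FPKM + 1), with and without quantile normalization (3.38 and 3.28), and from the authors' normalized values (3.15). Adding 1 to FPKM makes the fold change of a gene as low as Heyl in wild type too small. In the authors' deposited table Heyl was 42.8-fold and Hes1 2.07-fold higher in LDB2-/-, and Jag2 and Dll1 had signed folds of -2.57 and -3.78.

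**Figure D5:**
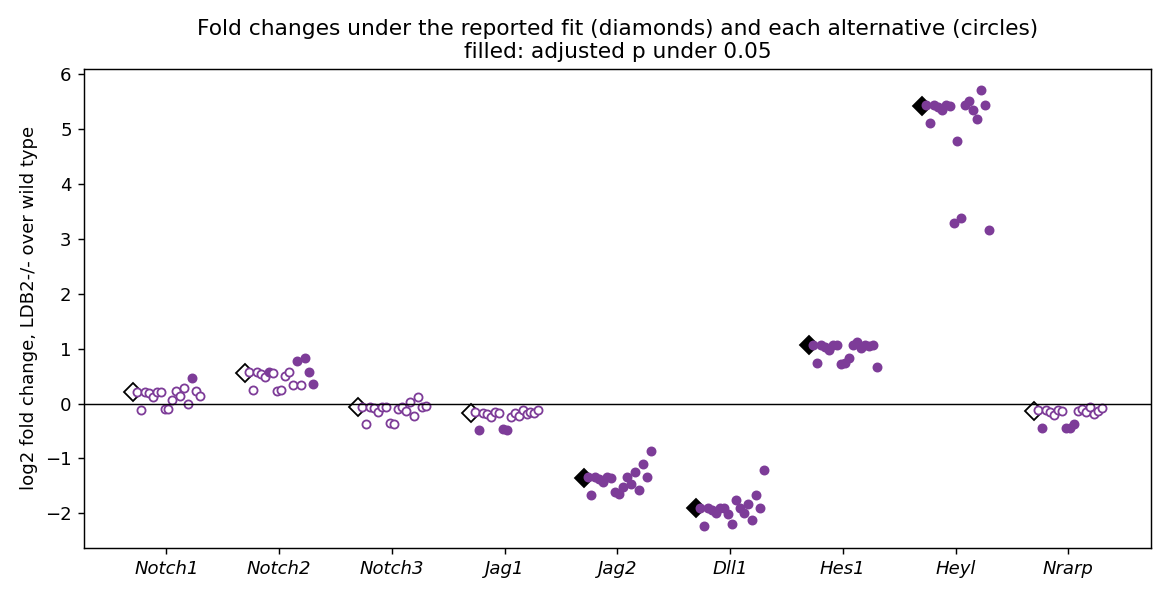
Log2 fold changes of LDB2-/- over wild type for the 9 tested members under the reported fit (diamonds) and 17 alternatives (circles), filled where the adjusted p was under 0.05. All points of Jag2, Dll1, Hes1 and Heyl are filled, while points of Notch1 and Notch3 fall on either side of 0.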

How the data were processed

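RNA of back skin epidermis was measured in 4 libraries, grouped by genotype from their titles. The epidermis was separated with dispase and sequenced after a TruSeq RNA preparation, per the labels' protocols, and strandedness is not given in the sources used here. HISAT2 2.1.0, StringTie 1.3.4d, bcl2fastq 1.8.4 and the build mm10 are listed in the submitters' processing notes. The authors deposited read counts per gene, not normalized, FPKM, and log2 values normalized between libraries by an unnamed method, per the file headers. The deposited table also holds the authors' signed fold change, treated as a score, and a Benjamini-Hochberg adjusted p-value, and the deposited mean scaled count (signal) was not used.

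Genes reaching an FPKM of 1 in 2 or more libraries entered the test with edgeR 4.0.16 (TMM, quasi-likelihood, two-sided, biological coefficient of variation 0.194) in R 4.3.3. SEs are those implied by the F statistic. Intervals are 1.96 SE either side. Alternatives used limma 3.58.1 and DESeq2 1.42.0, and figures matplotlib 3.10.9. The fits were tested on simulated data. Members, lists and motifs were chosen with earlier results of these data known. Named pathway genes were the up to 3 tested genes of each role with the largest absolute log2 fold change, beside those said to be chosen later, and some genes of the pathway list are not reported here. Coordinates and promoters are from RefSeq (GRCm38.p6) and overlaps from GENCODE M21, both of the mm10 assembly. Overlaps are between whole gene spans, introns included. The replicate numbers do not pair the samples by any label.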

Additional observations from a re-analysis of the deposited data

How the results depend on the processing

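In all, 15 other settings were fitted, with 2 more chosen after seeing the data (crossed pairs, authors' normalized values). Of the named pathway genes that were called, 12 were called in every alternative they could be fitted in. With the library total alone, 2248 genes rose and 5096 fell of 12400, 4 members fell, and 7 wider pathway genes rose and 26 fell. With limma on log2(FPKM + 1), 5350 genes, 4 members and 25 wider pathway genes fell, and with a pseudocount of 0.1 the number of members that fell was again 4. Leaving out each library in turn gave 2707 to 3264 genes higher and 2894 to 3461 lower, 2 to 4 members higher and 2 lower, and 9 to 12 wider pathway genes higher and 11 to 19 lower. The most members, 4 higher, came without wild type replicate 2. By read counts in place of FPKM, the share differed by 18.8 percentage points for Jag1, -11.3 for Jag2 and -7.50 for Dll1 (LDB2-/- minus wild type). Notch1 turned negative with the library total alone (-0.11), limma on log2(FPKM + 1) (-0.092) and a pseudocount of 0.1 (-0.095), and ran from -0.016 (without wild type replicate 1) to 0.47 when a library was left out. Notch3 turned positive without LDB2-/- replicate 2 (0.019) and without wild type replicate 2 (0.12), and ran from -0.22 to 0.12. The causes were not tested. With the replicate number as a block, 2 members rose and 2 fell, with 2916 genes higher and 3176 lower over all genes. Within-genotype differences of same-numbered libraries correlated at -0.209 over 12400 genes, and crossed pairs as a replicate block gave 3 members higher and 2 lower, with 3678 genes higher and 3591 lower.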
